A study of Mus musculus with 2 samples.

Results

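The genes described here are the ion channels and G protein-coupled receptors in the RNA sequencing of small intestinal organoids from AdipKO and WT mice. They were chosen by gene symbol. A symbol had to begin with one of 26 family names, such as Kcn for potassium channels, Cacn for calcium channels, P2r for purine receptors, Gpr for orphan receptors or Adgr for adhesion receptors, followed by a family number or letter. Clca3b was left out by the rule. Of the 1448 genes in the deposited tables, 43 were members. Gprin1 and Htra1 share a prefix but encode neither a channel nor a receptor, and they were set apart.

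Organoids are crypt cultures grown in Matrigel with EGF, Noggin and R-spondin. The AdipKO organoids had the genotype Adipfl/flpVilli-CreT, a floxed adiponectin gene with a Cre recombinase under the villin promoter, which is active across the gut epithelium. The WT organoids had the genotype Adipfl/fl, so the floxed gene was shared by both groups and the Cre was not. Sequencing gave 1 library per genotype. The sources used here do not give the age of the donor mice, the number of mice per library or the day of culture.

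The values are read counts, not scaled to library size. The tables hold only genes that differed between the libraries by about 2-fold or more, since no plain log2 ratio lay between -1.04 and 0.96. Every member therefore differed by selection, and a channel or receptor outside the tables has no value here. With 1 library per genotype, no p-value is given. Each fold carries an exact 95% interval computed from the 2 counts, which covers counting error and not the variation between cultures or animals. Adipoq, the targeted gene, was not among the listed genes, and neither were any of the 6 epithelial markers looked up (Epcam, Vil1, Cdh1, Krt8, Krt18 and Krt20). The genotype of each library thus rests on its label alone, and higher and lower would trade places below if the labels were exchanged. Of 6 crypt genes looked up after their values were seen (Lgr5, Ascl2, Olfm4, Tnfrsf19, Mycl and Lyz1), all 6 had fewer counts in the library labelled AdipKO. Lgr5, a receptor that marks crypt stem cells, had 3127 counts there and 7858 in the library labelled WT, and Olfm4, another stem cell marker, had 34083 and 92810. AdipKO and WT below name the libraries as labelled. In RNA from whole organoids, fewer cells of a type and less RNA per cell cannot be told apart.

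Ion channels set the membrane voltage of a cell and let calcium, sodium, potassium or chloride cross the membrane. G protein-coupled receptors read hormones, transmitters, fatty acids and other signals and act through cyclic AMP or calcium. In the gut epithelium, enteroendocrine cells carry voltage-gated channels and nutrient receptors and release hormones when they are excited, while enterocytes and crypt cells use channels and transporters to move salt and water.

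Most of the listed channels and receptors had lower counts in the AdipKO library. Of the 43 members, 34 (79.1%) were lower and 9 (20.9%) were higher, each by 2-fold or more with a pseudocount of 1. Among all 1448 listed genes, 62.2% were lower and 35.3% were higher by the same rule. With the listed totals made equal, which moves every log2 ratio up by 0.22, 25 members (58.1%) were lower by 2-fold or more and 9 were higher, against 45.6% and 37.8% of all listed genes. The median log2 ratio of the members was -1.42, against -1.15 over all listed genes. At 4-fold or more, 8 members (18.6%) were lower and 5 (11.6%) were higher, close to the 13.6% and 9.94% of all listed genes. The larger share of lower genes among the members was seen at high and at low counts. Of the 19 members with at least 50 counts in the library where they were higher, 15 (78.9%) were lower, against 60.6% of the 876 such genes in the whole list. Of the 24 members with fewer counts, 19 (79.2%) were lower, against 64.7% of 572.

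**Figure D1:**
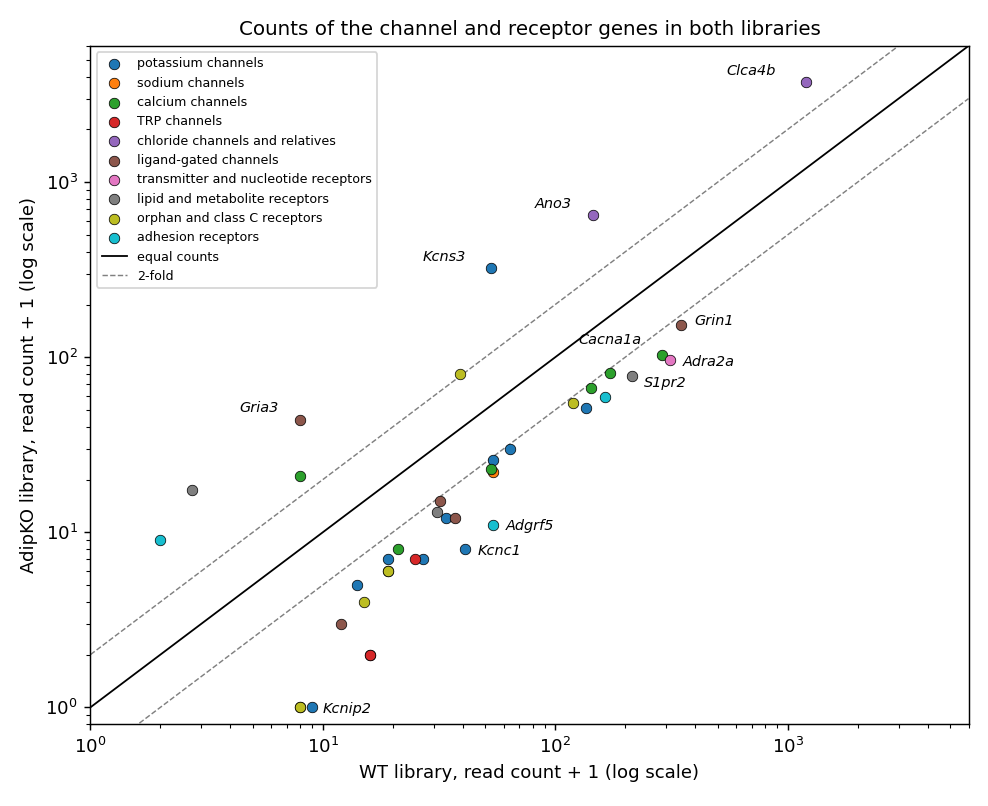
Each point is 1 gene, with its WT count on the horizontal axis and its AdipKO count on the vertical axis, both with 1 added and on log scales. Colours give the class, the solid line marks equal counts and the dashed lines mark 2-fold, and points with the same counts lie on each other. Clca4b, Ano3, Kcns3 and Gria3 lie far above the line, while most genes lie below it.

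The members were counted thinly. Their median count in the library where they were higher was 36, against 81.4 over all listed genes. Fewer than 16 counts in both libraries together were found for 5 of the 43 members and for 155 of all 1448 listed genes, a like share. All 43 intervals lay on 1 side of equal counts, although that of Kcnj15 began at 1.004-fold. The tables hold only genes that differed between the libraries, so this does not set the members apart. The interval lay wholly beyond 2-fold for 12 members, which were Kcns3, Kcnc1, Kcnh1, Cacna1a, Trpv3, Ano3, Clca4b, Gria3, Adra2a, S1pr2, Adgrf5 and Adgrg4. This count was not taken over all listed genes, so whether 12 of 43 is unusual is not known.

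The tables held a larger part of some classes than of others. They listed 43 of 420 annotated members (10.2%), against 6.51% of all 21900 protein-coding genes in the RefSeq table. A gene outside the tables may have been unchanged or undetected, and shares of annotated genes do not tell these apart. Most classes also rest on few listed genes. Calcium channels stood highest with 6 of 26 genes (23.1%), followed by lipid and metabolite receptors with 3 of 21 (14.3%) and potassium channels with 13 of 93 (14.0%). Of the 62 ligand-gated channels 5 were listed (8.06%), and of the 43 receptors for transmitters and nucleotides 2 were (4.65%). No gene was listed from 9 of the 26 families. Among them were the muscarinic and nicotinic acetylcholine receptors (Chrm and Chrn), the serotonin receptors (Htr) and the sodium channels with Scn symbols.

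**Figure D2:**
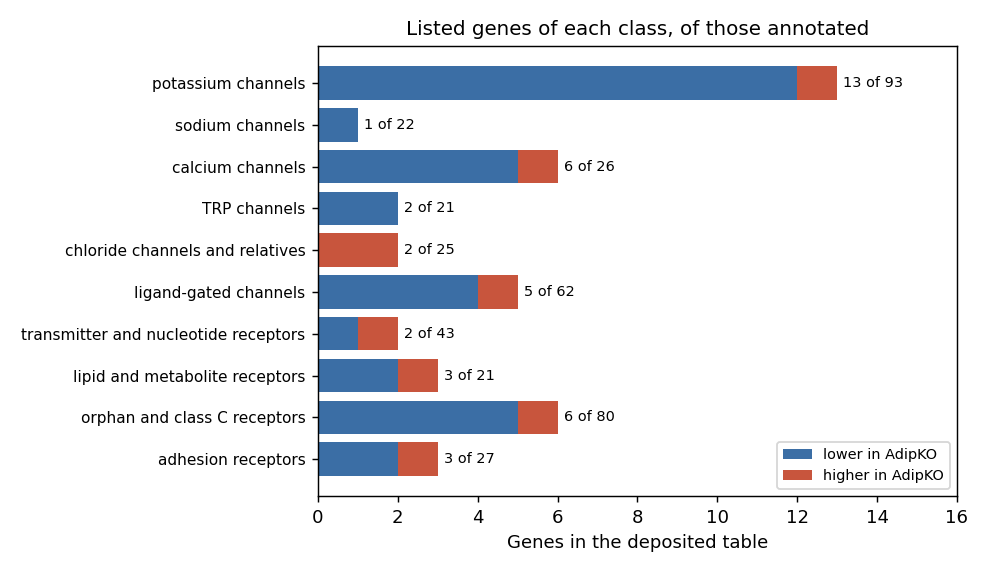
Bars count the genes of each class that were in the deposited tables, blue for lower and red for higher in AdipKO, and the text beside a bar gives the listed genes of those annotated in RefSeq. Potassium and calcium channels were mostly lower, with 12 of 13 and 5 of 6, and both listed chloride channel relatives were higher. Of all listed genes, 62.2% were lower and 35.3% higher by 2-fold or more.

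Upstream stretches of 3 genes show how unlike the promoters of the members are. Clca4b was the best counted member that was higher, and Adra2a and S1pr2 are well counted receptors that were lower. Each run is the 250 bases before the annotated RefSeq start (GRCm38.p6), read 5′ to 3′ on the strand of the gene. Capitals mark, on either strand, the TATA box TATAAA, the GC box GGGCGG, the core TGACG of the cAMP response element and the E-box CAGATG. The Clca4b stretch is chr3:144932530-144932779 on the minus strand, the Adra2a stretch chr19:54045009-54045258 on the plus strand and the S1pr2 stretch chr9:20976794-20977043 on the minus strand.
Clca4b: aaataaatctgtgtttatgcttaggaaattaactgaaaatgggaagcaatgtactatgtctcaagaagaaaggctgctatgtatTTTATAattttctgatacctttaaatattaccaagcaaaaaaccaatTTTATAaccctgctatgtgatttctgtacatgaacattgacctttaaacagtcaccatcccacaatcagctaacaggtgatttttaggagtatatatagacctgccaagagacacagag
Adra2a: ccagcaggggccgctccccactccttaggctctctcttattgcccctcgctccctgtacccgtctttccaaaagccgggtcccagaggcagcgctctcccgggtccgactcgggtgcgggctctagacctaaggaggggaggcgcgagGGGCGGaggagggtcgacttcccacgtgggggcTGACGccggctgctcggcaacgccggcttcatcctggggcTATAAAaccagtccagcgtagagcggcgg
S1pr2: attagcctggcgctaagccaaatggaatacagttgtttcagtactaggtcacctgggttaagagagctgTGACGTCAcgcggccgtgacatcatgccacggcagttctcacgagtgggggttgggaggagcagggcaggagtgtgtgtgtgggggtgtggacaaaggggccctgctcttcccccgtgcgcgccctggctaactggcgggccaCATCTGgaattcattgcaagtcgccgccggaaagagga

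The Clca4b window, the 250 bases before and 50 after the start, had 37.0% G and C and no CG pair, and its upstream part held TATAAA in 2 places on the opposite strand. The Adra2a window had 68.7% G and C and 28 CG pairs, with 1 GC box, 1 TGACG and 1 TATAAA. The S1pr2 window had 62.0% G and C and 18 CG pairs. In S1pr2, TGACG occurred on both strands in overlapping copies that form the full palindrome of a cAMP response element, and CAGATG, an E-box of the type that NeuroD factors bind, occurred once on the opposite strand. A match of letters is not a binding site, and no binding was measured.

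Across the members, RefSeq promoter windows were used for 29 of the 43 genes, in 41 windows. Windows on a single chromosome were left out, both of the members' windows and of all windows. Both strands were searched for 6 motifs. GGGCGG, the GC box, was in 48.8% of the members' windows and in 35.7% of all 32851 windows. TGACG, the core of the cAMP response element, was in 31.7% against 20.8%. The shares were close to those of all windows for TATAAA (14.6% against 13.6%), CAGATG (14.6% against 17.2%) and CAAAGT, an arm of the repeat that HNF4 factors bind (14.6% against 14.4%). TTCAGCACC, an arm of the element bound by the neuronal gene repressor REST, was in none of the 41 windows and in 0.371% of all windows. Windows of one gene can overlap, so they are not independent. The members' windows also held more G and C, with a median of 57.0% against 52.7% over all windows, and its part in the shares of the GC box and of TGACG was not tested.

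Potassium channels were the largest class, and 12 of the 13 listed were lower in the AdipKO library, against 62.2% of all listed genes. The median log2 ratio of the class was -1.49, against -1.15 over all listed genes. Kcnk16, a tandem-pore channel best known from pancreatic islet cells, had 50 counts in AdipKO and 135 in WT, 2.70-fold lower (1.94 to 3.81). Kcnc1, a fast voltage-gated channel of neurons that fire at high rates, had 7 counts in AdipKO and 40 in WT, 5.71-fold lower (2.53 to 15.1). Kcnab3, a cytoplasmic beta subunit, had 29 and 63 counts in AdipKO and WT, 2.17-fold lower (1.38 to 3.50). Kcnk6, another tandem-pore channel, had 25 and 53 counts, 2.12-fold lower (1.29 to 3.56).

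The exception was Kcns3, an electrically silent subunit that alters the gating of other voltage-gated potassium channels. It had 321 counts in AdipKO and 52 in WT, 6.17-fold higher (4.59 to 8.44), the largest count ratio among the members with at least 50 counts in either library. The gene lies on chromosome 12 from 11090202 to 11151168. Kcng3, which encodes a silent subunit of another subfamily, went the other way, with 6 counts in AdipKO and 26 in WT, 4.33-fold lower (1.74 to 12.9). The remaining potassium channel genes were lower on 8 to 33 counts in WT. Kcna1, a voltage-gated channel of axons, had 11 and 33 counts, and Kcnh1, of the ether-a-go-go family, had 1 and 15. Kcnt1, opened by internal sodium, had 5 and 18 counts. The inward rectifiers Kcnj5, which is opened by G proteins, and Kcnj15 had 6 and 18, and 4 and 13 counts. Kcnip2, a calcium-binding partner of voltage-gated potassium channels, had 0 counts in AdipKO and 8 in WT, at least 2.67-fold lower when the 0 is set to 3 counts.

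Genes for the pore of voltage-gated calcium channels were listed in 4 cases, and all 4 were lower in the AdipKO library. Of all listed genes, 62.2% were lower. Voltage-gated calcium channels couple membrane excitation to calcium entry and hormone release. Cacna1a, the P/Q-type pore that enterochromaffin cells use, had 102 counts in AdipKO and 286 in WT, 2.80-fold lower (2.23 to 3.55). Cacna1h, a T-type pore that opens at low voltage, had 66 and 141 counts, 2.14-fold lower (1.58 to 2.91). The L-type pores were lower by a like amount. Cacna1d had 80.42 counts in AdipKO and 170.41 in WT, 2.12-fold lower (1.62 to 2.81), in fractional counts, which arise when a program divides reads between genes. Cacna1c had 22 and 52 counts, 2.36-fold lower (1.41 to 4.09). The 4 intervals overlap, so their folds could not be told apart at this depth.

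The listed auxiliary subunits of the calcium channel families were thinly counted and went both ways. Cacna2d2, an alpha2delta subunit that helps bring the pore to the cell surface, had 20 counts in AdipKO and 7 in WT, 2.86-fold higher (1.16 to 7.997). Cacng4, which is better known for its role at AMPA-type glutamate receptors, had 7 and 20 counts, 2.86-fold lower (1.16 to 7.997). Asic1, a sodium-permeable channel opened by protons, was the one listed gene of the sodium channel class, with 21 counts in AdipKO and 53 in WT, 2.52-fold lower (1.497 to 4.41). Both listed TRP channels were lower on few counts, where 62.2% of all listed genes were lower. Trpv3, a heat-sensing channel of skin keratinocytes, had 1 count in AdipKO and 15 in WT, and the interval of its ratio ran from 2.31-fold to 632-fold. Trpc2, a channel of pheromone sensing in mice, had 6 and 24 counts.

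Both listed relatives of chloride channels were higher in the AdipKO library, and they were the best counted members of all. Of all listed genes, 35.3% were higher by 2-fold or more. Clca4b had 3737 counts in AdipKO and 1196 in WT, 3.13-fold higher (2.93 to 3.34). Genes of the Clca family encode secreted or membrane-bound regulators of calcium-activated chloride channels and are close copies of each other in a cluster on chromosome 3, so reads may have been shared between copies even though the counts of Clca4b were whole numbers. Ano3, a member of the anoctamin family of calcium-activated channels and lipid scramblases, had 644 counts in AdipKO and 144 in WT, 4.47-fold higher (3.73 to 5.40). It lies on chromosome 2 from 110655201 to 110950391. These 2 genes held 4381 of the 5907.77 counts of all members in AdipKO and 1340 of 4136.11 in WT, so the summed count of the members was higher in AdipKO while most of their genes were lower.

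Of the 5 listed ligand-gated channels 4 were lower, where 62.2% of all listed genes were lower. The 2 listed glutamate receptor subunits went opposite ways. Grin1, the subunit that every NMDA receptor needs, had 151 counts in AdipKO and 347.97 in WT, 2.30-fold lower (1.90 to 2.81). Gria3, a subunit of AMPA receptors, had 43 and 7 counts, 6.14-fold higher (2.74 to 16.2). The intervals of these 2 ratios lie on opposite sides of equal counts. The others were lower on few counts. Gabre, the epsilon subunit of GABA-A receptors, had 11 counts in AdipKO and 36 in WT. Of the channels opened by ATP, P2rx2 had 14 and 31 counts, and P2rx6 had 2 and 11.

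**Figure D3:**
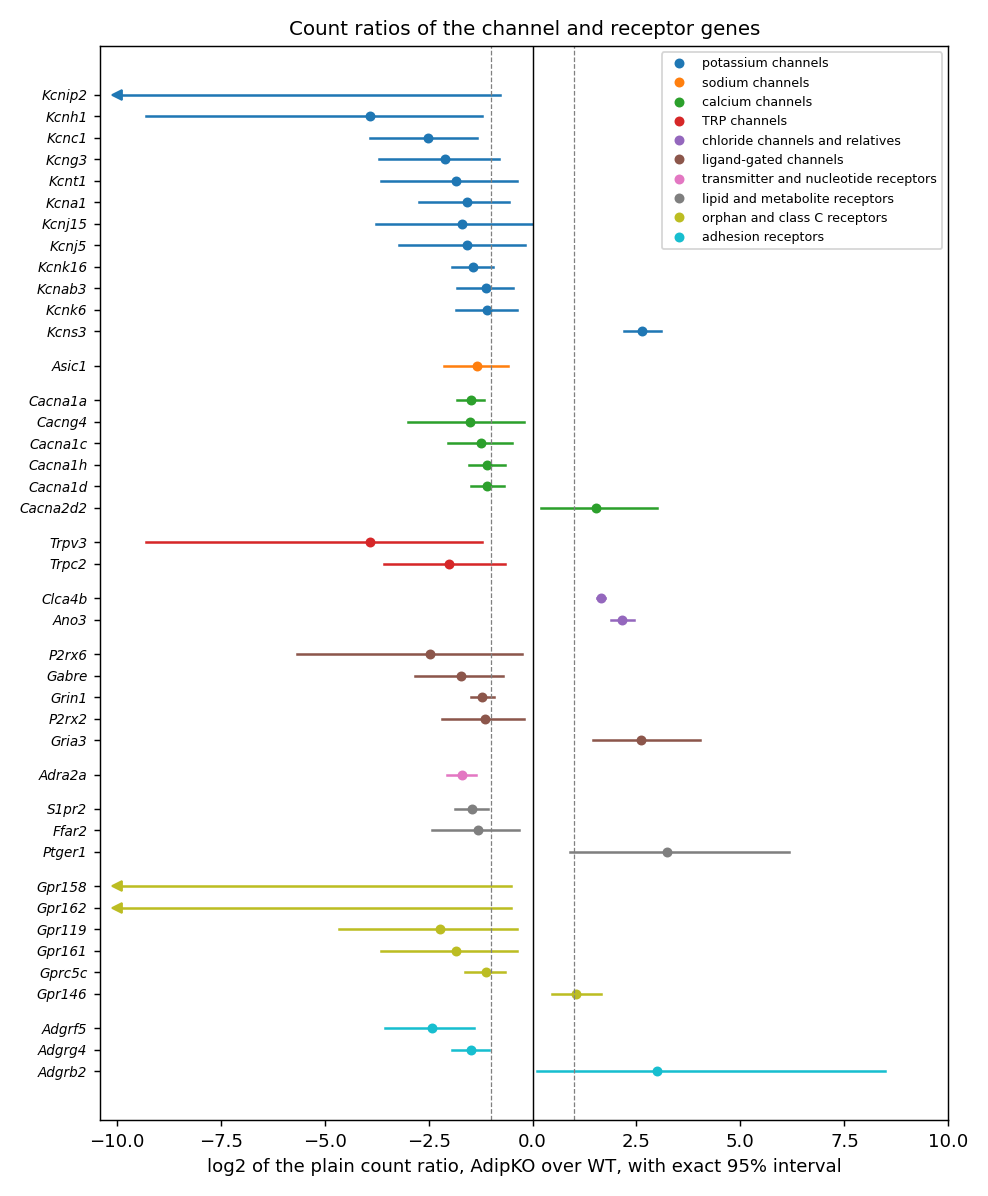
Each point is the log2 of the plain ratio of counts, AdipKO over WT, for 1 gene, with its exact 95% interval, grouped and coloured by class. Arrows mark genes with 0 counts in AdipKO, whose interval has no lower end, and dashed lines mark 2-fold. The intervals are narrow for Clca4b, Ano3, Kcns3, Adra2a, Cacna1a and Grin1 and wide for the many genes with few counts.

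Receptors for transmitters were rarely listed. Adra2a, an adrenergic receptor which lowers cyclic AMP through inhibitory G proteins and is found on enterochromaffin cells, had 95 counts in AdipKO and 310 in WT, 3.26-fold lower (2.59 to 4.15). It is a gene of 3724 bases on chromosome 19 from 54045259 to 54048982. No other gene of the Adra family was listed, of 6 annotated.

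Receptors for lipids and metabolites were listed in 3 cases. S1pr2, a receptor for sphingosine 1-phosphate, had 77 counts in AdipKO and 212 in WT, 2.75-fold lower (2.11 to 3.62). Ffar2, a receptor for short-chain fatty acids on cells that make glucagon-like peptides, had 12 and 30 counts, 2.50-fold lower (1.24 to 5.36). Ptger1, a prostaglandin E receptor, had 16.35 counts in AdipKO and 1.73 in WT, a 9.45-fold ratio whose interval, taken on whole counts, ran from 1.88 to 71.7. Its counts were fractional as well, as were those of Grin1.

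Of the 6 listed Gpr receptors 5 had fewer counts in AdipKO, where 62.2% of all listed genes were lower. The median log2 ratio of these receptors was -1.79, against -1.15 over all listed genes. Gprc5c, a class C orphan receptor, had 54 counts in AdipKO and 118 in WT, 2.19-fold lower (1.57 to 3.07). Gpr146, an orphan receptor, was the one that was higher, with 79 and 38 counts, 2.08-fold (1.395 to 3.15). Gpr119, a lipid receptor of hormone cells that make glucagon-like peptides, had 3 counts in AdipKO and 14 in WT, and Gpr161, a receptor of the primary cilium, had 5 and 18. Gpr158 and Gpr162 had 0 counts in AdipKO and 7 in WT each, at least 2.33-fold lower when the 0 is set to 3 counts.

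Adhesion receptors have long extracellular parts that bind matrix or other cells. Adgrg4, described in human enterochromaffin cells, had 58 counts in AdipKO and 162 in WT, 2.79-fold lower (2.06 to 3.84). Adgrf5, best known from lung and endothelium, had 10 and 53 counts, 5.30-fold lower (2.67 to 11.7). Adgrb2, a brain receptor, had 8 counts in AdipKO and 1 in WT, an 8-fold ratio with an interval from 1.07 to 355.

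Genes that act downstream of these receptors were looked up as a list of their own. Of 103 G protein and second messenger genes, 10 were listed (9.71%, against 6.51% of all protein-coding genes). Of these 10, 8 were lower and 2 higher, where 62.2% of all listed genes were lower, and their median log2 ratio was -1.45 against -1.15. Adcy1 and Adcy8, adenylyl cyclases that calcium stimulates, were both lower. Adcy1 had 89 counts in AdipKO and 274 in WT, 3.08-fold lower (2.42 to 3.96), and Adcy8 had 44 and 107, 2.43-fold lower (1.70 to 3.54). The receptor kinases, which switch off active receptors, went opposite ways. Grk5 had 86 and 227 counts, 2.64-fold lower (2.05 to 3.42), and Grk3 had 243 and 106, 2.29-fold higher (1.82 to 2.91).

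Of 60 receptors of other families, 5 were listed (8.33%, against 6.51% of all protein-coding genes). Each of them had fewer counts in AdipKO, where 62.2% of all listed genes were lower, and their median log2 ratio was -1.76. Cckar, the receptor for the hormone cholecystokinin, had 8 counts in AdipKO and 51 in WT, 6.38-fold lower (3.003 to 15.6). Sstr1, an inhibitory somatostatin receptor, had 20 and 62 counts, 3.10-fold lower (1.85 to 5.42). The others were Sstr3, the cannabinoid receptor gene Cnr1 and the chemokine receptor gene Cxcr4, with 16 to 31 counts in WT. Of 26 genes of intestinal ion transport, 4 were listed (15.4%), 3 higher and 1 lower, where 35.3% of all listed genes were higher. The anion exchangers of the enterocyte brush border were both higher. Slc26a3 had 578 counts in AdipKO and 246 in WT, 2.35-fold higher (2.02 to 2.74), and Slc26a6 had 435 and 125, 3.48-fold higher (2.85 to 4.28). Aqp3, a water channel, had 20 and 5 counts, and Atp12a, a proton pump, had 0 and 11.

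**Figure D4:**
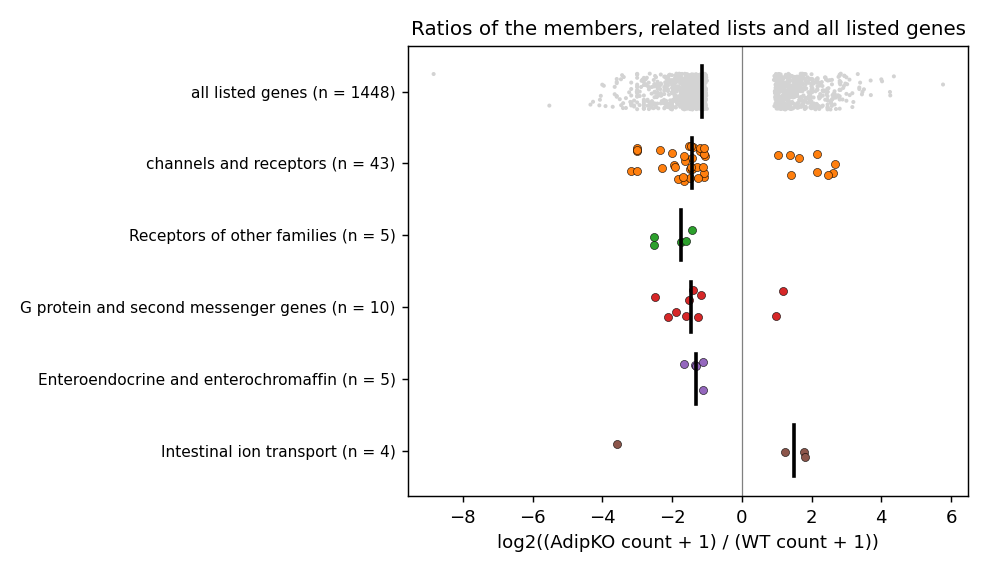
Points are genes and black bars are medians of the log2 ratio with a pseudocount of 1, for all 1448 listed genes, the 43 members and 4 other lists. The medians were -1.15, -1.42, -1.76 for receptors of other families, -1.45 for G protein and second messenger genes, -1.30 for enteroendocrine markers and 1.51 for intestinal ion transport, and the empty band around 0 is the part of the range that the tables do not hold.

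The listed markers of enteroendocrine cells were lower in the same library as most of the channels and receptors. Of 14 such markers 5 were listed (35.7%), all lower, where 62.2% of all listed genes were lower, with log2 ratios between -1.64 and -1.11, and their summed count was 4255 in AdipKO and 10146 in WT. Chga, the core protein of hormone granules, had 1379 counts in AdipKO and 3009 in WT, 2.18-fold lower (2.05 to 2.33). Neurod1, a transcription factor of these cells, had 154 and 333 counts, 2.16-fold lower (1.78 to 2.64). The hormone genes Gcg, Cck and Pyy were 2.53-fold, 2.46-fold and 3.43-fold lower. The interval of Cacna1a overlaps those of all 5 listed markers. That of Adra2a, from 2.59 to 4.15, lies beyond that of Chga but overlaps those of the other listed markers. These are Gcg (2.38 to 2.70), Cck (2.315 to 2.62), Neurod1 (1.78 to 2.64) and Pyy (1.43 to 9.42). None of the listed markers was at 0. The other markers looked up, Chgb, Tph1, Tac1, Sst, Gip, Nts, Scg2, Pcsk1 and Rfx6, were not listed and have no value here. Only genes about 2-fold apart or more are listed, and the median log2 ratio over all of them was -1.15. Overlap between intervals of lower genes is thus favoured by the selection, and no conclusion is drawn from it. The part of enteroendocrine cells in the lower counts of the channels and receptors was not tested.

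Few markers of other cell types were listed. Of 9 markers of neurons and glia, Tubb3 was lower with 16 counts in AdipKO and 51 in WT, and S100b was higher with 24 and 5. Vim was the 1 listed of 9 fibroblast and muscle genes, with 109 and 322 counts, and Il17rb the 1 of 7 tuft cell genes, with 20 and 44. Cd68 and Itgam were listed of 7 immune genes, and both were higher. No goblet cell marker was listed of 6.

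Base composition and length differed between higher and lower genes in the members as in the whole list. Members that were lower had a median transcript GC content of 54.15%, and those that were higher 49.0%. Over all listed genes the medians were 54.1% and 49.8%. The median transcript length was 3545 nucleotides for lower and 2997 for higher members, and 2616 and 1880 over all listed genes. The members lay on 18 chromosomes. The part of GC content and length in the direction of the counts was not tested.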

How the data were processed

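Organoid RNA of each genotype was sequenced as 1 library on the MGISEQ-2000 platform. The authors deposited estimated counts of sequencing reads without scaling to depth, for the same 1448 genes in both libraries. Per the labels the build was mm10. No aligner, counting program or annotation is named in the sources used here. The tables appear to have been selected by fold change, so library depth was not analysed, and the counts entered the ratios as deposited. The log2 ratio was computed with a pseudocount of 1. Intervals are exact (Clopper-Pearson) 95% intervals on counts rounded to whole numbers (scipy 1.17.1). They were tried on simulated counts that held counting error only, as the intervals assume, so other variation was not tested. A count of 0 was set to 3 for bounds. Reads are not independent molecules, so both cover counting error only. Counts were not divided by gene length, and levels of different genes were not compared. Strand handling was not given, so overlapping genes are uncertain.

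Members, classes and lists were chosen with earlier results of these data known. Members with 50 or more counts in either library were given in full, as were those with the highest and lowest ratio of a class or a count of 0. The values of some members are not reported here, in the text or in the plots of single genes. From the other lists up to 4 genes with at least 50 counts were named. Aqp3, Atp12a, Sstr3, Cnr1, Cxcr4 and the markers were named after their values were seen. Of 1448 gene IDs, 1436 matched RefSeq (GRCm38.p6), including all 43 members. Transcript GC content and length came from GENCODE M21 and were known for all 43 members and for 1394 listed genes. The 2-fold count under each pseudocount and scaling was added after seeing the data. Alternatives covered the pseudocount, the scaling, low counts, fractional counts, the mean, the fold threshold and the symbols set apart.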

Additional observations from a re-analysis of the deposited data

How the results depend on the processing

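Among 173 values recomputed under an alternative, none changed sign (0), 166 differed from the reported value by less than its counting interval or 1.5 times, and 7 by more. For a median over genes, that interval ran between the medians of the genes' own interval ends. It is not an interval of the median itself. The sign of a member could not change with the pseudocount or the scalings tried, since the tables hold no ratio near 0, so members were also counted at 2-fold or more under each, a choice made after seeing the data. They were 9 higher and 34 lower with a pseudocount of 0.1 and with the empty band of ratios centred on 0, 8 and 32 with a pseudocount of 5, and 9 and 25 with the listed totals made equal. At a threshold of 4-fold, 5 were higher and 8 lower. The median log2 ratio of the members ranged from -1.46 with a pseudocount of 0.1 to -0.95 for the mean in place of the median. Scaling by factors that assume most genes unchanged was not run, since the tables hold only genes about 2-fold apart or more. No paired analysis was possible because there was 1 library per genotype. Low counts limit most members: 24 of 43 had fewer than 50 counts in the higher library.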

Other observations

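The 2 genes set apart by symbol also went opposite ways. Gprin1, a partner of G proteins in growing neurites, had 8 counts in AdipKO and 50 in WT, and Htra1, a secreted serine protease, had 13 and 3. Keeping them gave 10 higher and 35 lower genes with the same median log2 ratio of -1.42.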
